A study of Mus musculus with 4 samples.

Results

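The Tudor domain genes of germ granules are 10 of the 22808 genes for which testis RNA was measured: Tdrd1, Tdrd3, Tdrd5, Tdrd6, Tdrd7, Tdrd9, Tdrd12, Tdrkh, Rnf17 and Stk31. They were selected by gene symbol as a family, and the selection was made with their levels in both libraries known, including that Tdrd1 stood apart. Its difference between the genotypes is therefore given as a description. Testes were taken at postnatal day 23, and 1 RNA library was made for the Piwil1+/- and 1 for the Piwil1-/- genotype. The control animals thus also carry a Piwil1 mutation on one chromosome. The labels do not give the kind of Piwil1 allele or how many animals were used. PIWIL1-bound small RNAs from testes of adult wild-type C57BL/6J mice, 10 weeks old, were sequenced in 2 replicate libraries and serve here as a separate readout.

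Tudor domains are folds, many of which bind methylated arginines. In germ cells they hold PIWI proteins, whose N-terminal arginines are dimethylated by the methyltransferase PRMT5, in granules such as the intermitochondrial cement of spermatocytes and the chromatoid body of spermatids. PIWI proteins carry piRNAs, small RNAs that silence transposons and cut other RNAs. PIWIL1 (MIWI) is a PIWI protein of pachytene spermatocytes and round spermatids. Tudor proteins help to make piRNA precursors into piRNAs and to place PIWI proteins in the granules.

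Levels are in RPKM, reads per kilobase of gene and per 1000000 mapped reads, and RPKM is also the scale on which genes are compared with each other. Values for a gene given as a pair are always Piwil1+/- first and Piwil1-/- second. Both libraries were deep by totals inferred from the RPKM values, 104014686 and 100254357 mapped reads for Piwil1+/- and Piwil1-/-. In Piwil1+/- testis Piwil1 itself had 26.2 RPKM, and the value listed for Piwil1-/- was 0. Markers of meiotic prophase cells (5 genes) summed to 621 and 684 RPKM in Piwil1+/- and Piwil1-/-, those of round spermatids (4 genes) to 113 and 73.6, and those of elongating spermatids (5 genes) to 74.7 and 26.02, most of it Akap4. Tnp1, Prm1 and Prm2 were listed at 0 in Piwil1-/-, but they were low in Piwil1+/- too, at 0.458, 0.0616 and 1.42 RPKM. The library of Piwil1-/- testis thus held less spermatid RNA relative to prophase RNA, and the part of this in the values below was not tested. In whole testis, fewer cells of a type and less RNA per cell cannot be told apart. Each genotype has 1 library, so the differences below could not be tested against the spread between animals. Intervals are 95% intervals of counting error, computed from the smallest whole read numbers that fit the RPKM values, so that they may be too wide, and cover neither differences between animals nor PCR copies.

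Promoters are shown first for the 3 members with the highest ratio of Piwil1-/- to Piwil1+/-, because the small RNAs were searched against them. Each run holds the 250 bases before the most upstream promoter start listed for the gene, 5′ to 3′ on its strand. In the GRCm38.p6 (mm10) build these are chr19:56825959-56826208 (plus strand) for Tdrd1, chr7:35537745-35537994 (minus strand) for Tdrd12 and chr12:111971309-111971558 (plus strand) for Tdrd9. The RefSeq gene spans begin within these runs, at 56826171 for Tdrd1, 35537784 for Tdrd12 and 111971488 for Tdrd9. The last bases of each run thus lie inside the gene. Capitals mark CACGTG, the E-box bound by basic helix-loop-helix factors.
Tdrd1: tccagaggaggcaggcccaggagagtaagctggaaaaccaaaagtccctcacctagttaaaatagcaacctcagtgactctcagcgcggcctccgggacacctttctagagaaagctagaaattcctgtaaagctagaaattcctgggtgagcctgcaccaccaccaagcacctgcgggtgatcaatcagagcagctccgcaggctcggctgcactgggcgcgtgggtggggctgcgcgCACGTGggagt
Tdrd12: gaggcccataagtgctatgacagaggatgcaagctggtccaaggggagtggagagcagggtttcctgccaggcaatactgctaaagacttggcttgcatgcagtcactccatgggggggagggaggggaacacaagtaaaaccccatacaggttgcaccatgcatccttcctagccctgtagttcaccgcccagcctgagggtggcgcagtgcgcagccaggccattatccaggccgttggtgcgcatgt
Tdrd9: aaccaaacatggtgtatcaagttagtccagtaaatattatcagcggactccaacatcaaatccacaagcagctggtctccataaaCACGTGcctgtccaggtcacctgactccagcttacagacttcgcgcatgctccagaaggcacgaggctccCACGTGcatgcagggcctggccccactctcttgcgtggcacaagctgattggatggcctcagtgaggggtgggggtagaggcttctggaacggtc

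RefSeq promoter entries were found for 8 of the 10 genes, all but Rnf17 and Tdrd6. Motifs, chosen after these sequences had been seen, were searched on both strands around the most upstream promoter start listed for each gene. The window was the 300 bases from 250 before to 50 after it. For Tdrd3, Tdrd5 and Tdrd7 the whole window lay inside the RefSeq gene span, downstream of where the span begins. CACGTG was found in Tdrd1 (first base at position -11 from the listed start, inside the RefSeq span), Tdrd9 (-165 and -95) and Stk31 (-55). It was in 7.24% of 27025 genes. GCGCANGCG, the core of the motif bound by NRF1, was found in Tdrd1 (position 6), Tdrd5 and Stk31, and in 6.49% of genes. The palindromic cAMP response element TGACGTCA was found in none of the 8 and in 1.85% of genes. AACNG, the core bound by MYB factors, was in 7 of the 8, but it is also in 80.4% of genes. Among genes at 1 RPKM or more in either library, CACGTG was in 10.4% of promoters and GCGCANGCG in 15.4%. When every listed start was searched, Tdrd7 also held GCGCANGCG. The promoter of Tdrd12 held neither CACGTG nor GCGCANGCG. The windows of the 8 genes had a median GC content of 60.2% and a median of 22.5 CpG dinucleotides, against 60.3% and 21 in the promoters of genes at 1 RPKM or more. They ranged from 4 CpG in Tdrd7 and 9 in Tdrd12 to 48 in Tdrd5, with 20 in Tdrd1. These matches are letters in a window and no measure of binding.

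No PIWIL1-bound small RNA of 26 to 33 nt matched a promoter of the Tudor domain genes. The 14 promoter windows of the 8 genes were searched without mismatches and on both strands, and 0 of 4077499 reads of this length in replicate 1 and 0 of 5937125 in replicate 2 matched. A count of 0 allows up to 0.635 and 0.474 reads per 1000000 trimmed reads of any length, of which there were 4722785 and 6322998. Across all 27025 genes with a promoter entry, 822 had at least 1 matching small RNA found in no promoter window of another gene. These small RNAs had 10038 reads in replicate 1 and 14099 in replicate 2. Matches elsewhere in the genome were not searched. Most genes thus had none, and 0 for these 8 genes does not set them apart. The rest of each gene, its exons, introns and UTRs, was not analysed here.

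All 10 genes were expressed above 1 RPKM in both libraries. Tdrd6, which encodes a multi-Tudor scaffold of the chromatoid body, was highest at 128 RPKM in Piwil1+/- and 127 in Piwil1-/-. Tdrkh, a mitochondrial Tudor protein needed to trim piRNA 3′ ends, was lowest at 10.6 and 10.9. The other genes lay between these, so that the family covered a range of levels and reached the highest 1.53% of the 9951 genes past 1 RPKM with Tdrd6. In Piwil1+/- 7 genes lay close together: Tdrd7 (58.7 RPKM), Tdrd9 (58.6), Stk31 (54.1), Rnf17 (51.6), Tdrd5 (50.002), Tdrd1 (45.7) and Tdrd12 (43.6). Of these neighbours, only Tdrd7 and Tdrd9 had overlapping counting intervals. Tdrd3 followed at 20.9 RPKM, and it differed from Tdrd12 above it by 2.09-fold and from Tdrkh below it by 1.98-fold.

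**Figure D1:**
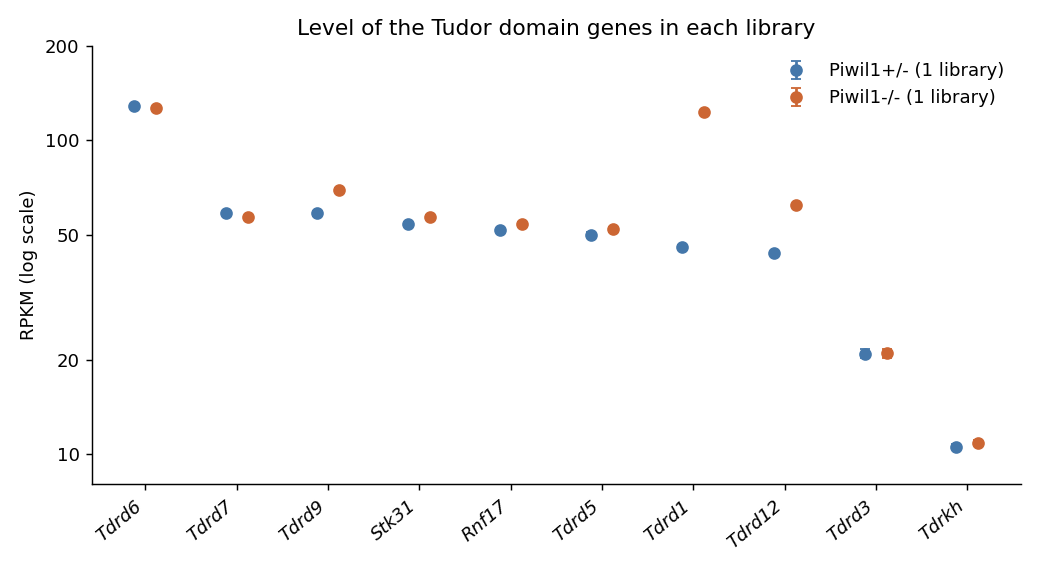
RPKM of the 10 Tudor domain genes (log axis) in the Piwil1+/- library (blue) and the Piwil1-/- library (orange), 1 library each, ordered by Piwil1+/- level, with 95% counting intervals. Tdrd1 moves from 45.7 to 123 RPKM, while Tdrd6 (128 and 127) and Tdrd3 (20.9 and 20.96) have nearly the same level in both libraries.

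In Piwil1-/- the order changed for several genes. Tdrd1 moved from the seventh level of the family to the second, behind Tdrd6 alone. Tdrd12 moved from the eighth to the fourth and Tdrd7 from the second to the sixth, without a large change in its own level. Tdrd6, Tdrd9, Tdrd3 and Tdrkh kept their places, including the highest and the lowest. Tdrd1 was at 0.356 of the level of Tdrd6 in Piwil1+/- and at 0.972 of it in Piwil1-/-, where their counting intervals still did not overlap. The pair whose intervals overlapped in Piwil1-/- was Stk31 and Tdrd7, at 57.05 and 56.8 RPKM.

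Tdrd1 was the member that differed most between the genotypes. It encodes a protein with several Tudor domains that binds PIWIL2 (MILI) in the intermitochondrial cement and is needed for transposon silencing. The gene lies on chromosome 19 from 56826171 to 56870012 (mm10). Tdrd1 RNA was at 45.7 RPKM in the Piwil1+/- and at 123 RPKM in the Piwil1-/- library. The fold was 2.70 (counting interval 2.65 to 2.74), from at least 16728 and 43472 reads. Its difference of log2 (RPKM + 1), Piwil1-/- minus Piwil1+/- (called the log2 ratio below), was 1.41 and ranked eighth of the 9951 genes at 1 RPKM or more in either library. It was the single member at least 2-fold higher, and no member was at least 2-fold lower. Of all these genes 0.231% were at least 2-fold higher and 1.96% at least 2-fold lower in Piwil1-/-, or 23 and 195 genes. With a pseudocount of 0.1 in place of 1 RPKM these numbers were 68 and 332, and Tdrd1 was still the single member past 2-fold. These genotype values entered the choice of the members.

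Tdrd1 was also one of the most abundant genes with so high a ratio. Of 840 genes at or above its level in Piwil1+/-, 2 were at least 2-fold higher in Piwil1-/- and 2 at least 2-fold lower. Over all 9951 genes these numbers were 23 and 195, so the share at least 2-fold higher was similar. The 2 higher genes were Tdrd1 and Tex101, which encodes a germ cell surface protein and was at 62.3 and 154 RPKM. The median Piwil1+/- level of the 23 genes at least 2-fold higher was 7.04 RPKM. By RPKM gained, 77.5 for Tdrd1, it was the fifth of all genes. Of its neighbours on chromosome 19, Ccdc186, a coiled-coil protein gene that ends 3971 bp before Tdrd1, was not higher in Piwil1-/-, with levels of 16.5 and 14.4 RPKM and a fold of 0.870 (0.828 to 0.914). Vwa2, which starts 4403 bp after it, was at 0.0243 and 0.0126 RPKM, from at least 2 reads and 1 read, too few to tell whether it shared the difference (fold interval 0.00879 to 9.96). No other protein-coding gene of the table overlapped Tdrd1. Whether reads were counted by strand is not stated, and reads from an antisense RNA could not be told apart.

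**Figure D2:**
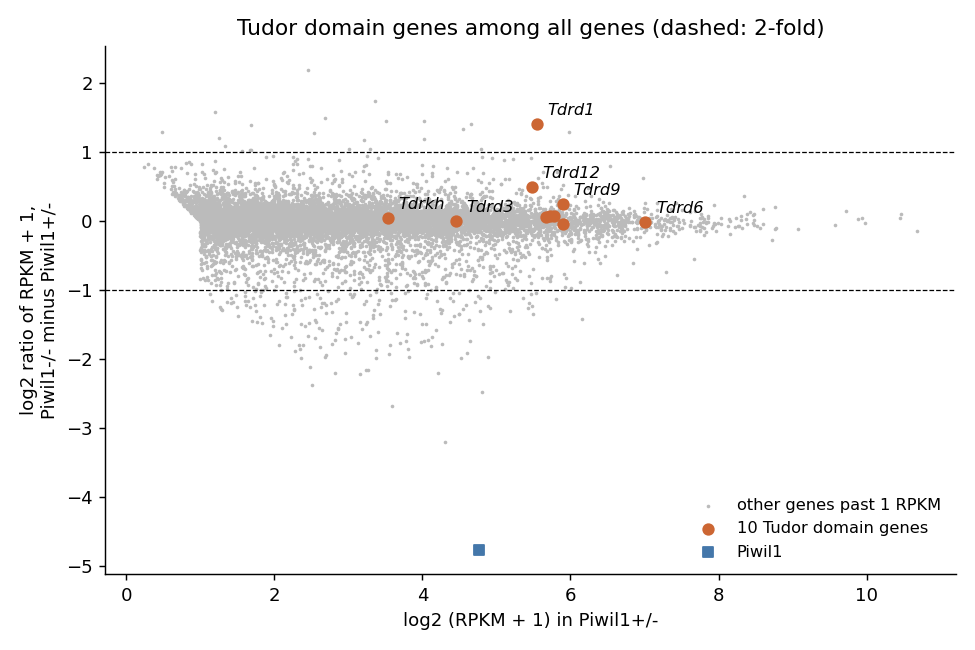
Level in Piwil1+/- (x axis, log2 of RPKM + 1) against the log2 ratio of Piwil1-/- to Piwil1+/- (y axis) for 9951 genes (grey), the 10 Tudor domain genes (orange) and Piwil1 (blue square). Dashed lines mark 2-fold. Tdrd1 lies above the upper line at 1.41, and the other 9 genes lie between -0.05 and 0.50.

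The helicase-type Tudor genes came next. TDRD12 and TDRD9 join a Tudor domain to an RNA helicase domain, and both are needed to silence retrotransposons in the male germ line, TDRD9 as a partner of PIWIL4 (MIWI2). Tdrd12 had 43.6 RPKM in Piwil1+/- and 62.04 in Piwil1-/-, 1.42-fold higher (1.41 to 1.44), on at least 46614 and 63918 reads. Tdrd9 was at 58.6 and 69.5 RPKM, 1.19-fold higher (1.16 to 1.21). Their log2 ratios were 0.50 and 0.24. Over all genes past 1 RPKM, the middle 50% of log2 ratios ran from -0.12 to 0.11 and 95% were at or below 0.34. Tdrd1 and Tdrd12 were above that 95th percentile, Tdrd9 was below it but above the middle 50%, and the remaining 7 members were inside the middle 50%.

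Tdrd6, Tdrd7, Tdrd5 and Tdrkh were each at similar levels in the 2 libraries. Tdrd6 had a fold of 0.988 (interval 0.982 to 0.995). Tdrd7, which acts in the remodelling of the chromatoid body and in translation control, was at 58.7 and 56.8 RPKM in Piwil1+/- and Piwil1-/-, a fold of 0.968 (0.954 to 0.982). These were the members whose fold was below 1. Tdrd5, which binds pachytene piRNA precursors, was at 50.002 and 52.02 RPKM, a fold of 1.04 (1.01 to 1.07). Tdrkh had a fold of 1.03 (1.003 to 1.06).

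Rnf17 and Stk31, which pair Tudor domains with a RING finger and a kinase domain, were both slightly higher. Rnf17, a germ cell protein that limits secondary piRNA production in meiosis, had levels of 51.6 and 54.3 RPKM, a fold of 1.05 (interval 1.03 to 1.07). Stk31 was at 54.1 and 57.05 RPKM, a fold of 1.05 (1.03 to 1.08). Tdrd3 differs from the others in that it is expressed in many tissues, where its protein works with the topoisomerase TOP3B. It was at 20.9 and 20.96 RPKM, a fold of 1.003 (0.956 to 1.05), and it was the member whose counting interval included 1. For the other 9 genes the interval excluded 1, above it for 7 and below it for 2. The same share over all genes is not given here, so this count is not read as a trait of the family. At these read numbers counting error is small, and whether differences of a few percent exceed those between animals cannot be told with 1 library each.

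**Figure D3:**
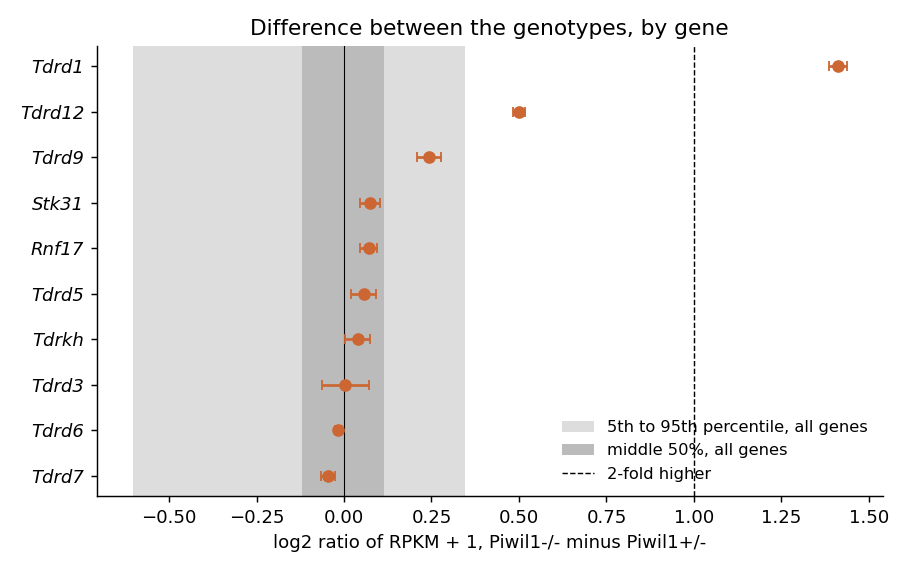
Log2 ratio of RPKM + 1, Piwil1-/- minus Piwil1+/-, for each gene, with 95% counting intervals. Bands show the middle 50% (dark) and the 5th to 95th percentile (light) of 9951 genes, and the dashed line marks 2-fold. Tdrd1 (1.41) and Tdrd12 (0.50) lie to the right of both bands.

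The sum over the family moved mainly with Tdrd1. The 10 genes summed to 522 and 633 RPKM in the Piwil1+/- and Piwil1-/- libraries, which is a ratio of 1.21. Without Tdrd1 the sums were 476 and 510.2, a ratio of 1.07. Tdrd1 made up 8.76% of the family sum in Piwil1+/- and 19.5% in Piwil1-/-, while the share of Tdrd6 went from 24.6% to 20.01%. Of the net RPKM gained by the family, Tdrd1 held 69.5%, Tdrd12 16.5% and Tdrd9 9.80%. The median log2 ratio of the 10 genes was 0.06, and 0.06 without Tdrd1, beside a median of 0.01 over all 9951 genes. Tdrd1 lay 0.91 above Tdrd12 on the log2 scale, further than the other 9 genes were spread among themselves (0.55). That Tdrd1 stood apart was known when the family was chosen, so this gap only describes the same values again.

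**Figure D4:**
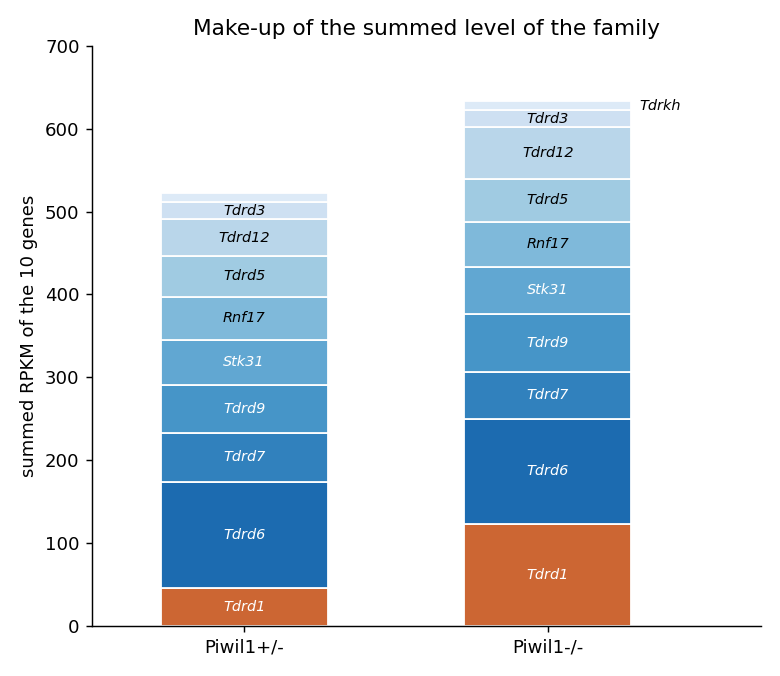
Summed RPKM of the 10 genes in Piwil1+/- and Piwil1-/- (1 library each), split by gene, with Tdrd1 in orange at the base. The Tdrd1 segment grows from 8.76% to 19.5% of the bar, and the bar from 522 to 633 RPKM.

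Beside the 5 meiotic prophase markers, whose median log2 ratio was 0.13 and highest value 0.18, the 10 genes split into 3 above the highest marker (Tdrd1, Tdrd12 and Tdrd9) and 7 below the median marker. The round spermatid markers ranged from -0.76 to -0.51 and the 3 elongating spermatid markers past 1 RPKM from -1.44 to -1.28. The lowest of the 10 genes was Tdrd7, at -0.05. Of markers for other cells, spermatogonia (2 genes past 1 RPKM), Sertoli cells (2) and Leydig cells (3) had medians of 0.06, 0.12 and -0.13. Insl3, a Leydig marker, was very low in both libraries, at 0 and 0.0541 RPKM. Hbb-bs, the blood marker past 1 RPKM, was at -0.60, while Hba-a1 and Ptprc, both under 1 RPKM, were at -0.01 and 0.10.

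Other genes that encode Tudor domains, outside the germ granule family, had a median log2 ratio of 0.04. Of 25 listed, 23 had a row and 20 passed 1 RPKM, with 13 above 0 and 7 below. None was at least 2-fold higher. The gene at least 2-fold lower was Akap1, whose protein holds a Tudor domain on the outer membrane of mitochondria and anchors protein kinase A. Akap1 had levels of 25.9 and 11.7 RPKM, a fold of 0.452 (interval 0.442 to 0.462). The highest was Lbr, the lamin B receptor, at 20.8 and 26.2 RPKM (log2 ratio 0.32). Snd1, a multifunctional Tudor nuclease found in most cells, was at 9.09 and 8.95 RPKM. Snd1 and, among the genes described next, Piwil2, Ddx4, Mael, Piwil4, Prmt5 and Mybl1 were chosen after their values were seen.

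PIWI proteins and granule partners of the Tudor proteins, a list that also holds the nuclear Morc1, had log2 ratios on both sides of 0. Of 24 genes listed, 21 passed 1 RPKM, 15 of them above 0 and 6 below, Piwil1 among the latter, with a median of 0.04. The middle 50% of all genes (-0.12 to 0.11) held 7 of the 21, and 14 lay outside it. The highest was Morc1, a nuclear ATPase gene needed for transposon silencing in male germ cells, with levels of 2.20 and 5.58 RPKM and a log2 ratio of 1.04, which is a fold of 2.53 (2.16 to 2.98) on at least 218 and 532 reads. Apart from Piwil1 the lowest was Tsks, a spermatid kinase substrate, at 8.05 and 6.07 RPKM (-0.36). Piwil2, whose protein binds TDRD1, was at 38.6 and 53.6 RPKM, 1.39-fold higher (1.36 to 1.42). Ddx4, the germ cell helicase VASA, was at 159 and 160.4 RPKM, and Mael, a granule protein, at 331 and 339. Piwil4, the partner of TDRD9, was under 1 RPKM in both libraries, at 0.141 and 0.204.

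Arginine methyltransferases, the enzymes that write the mark bound by many Tudor domains, and their cofactors had 9 of 12 genes past 1 RPKM. Of these, 3 had a log2 ratio above 0 and 6 below, with a median of -0.09 and none past 2-fold. Prmt9 was highest (0.18) and Carm1 lowest, at 7.62 and 5.34 RPKM (-0.44). Prmt5, which makes this mark on PIWI proteins, was at 27.5 and 25.7 RPKM. A mixed list of transcription regulators of pachytene cells and spermatids had 8 of 8 genes past 1 RPKM, 3 above 0 and 5 below. Their median log2 ratio was -0.04, and none was past 2-fold. They ran from Sox30, a spermatid transcription factor (-0.37), to Taf7l, a germ cell TFIID subunit (0.17). Mybl1 (A-MYB), the activator of pachytene piRNA genes, was at 36.7 and 40.3 RPKM (0.13).

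**Figure D5:**
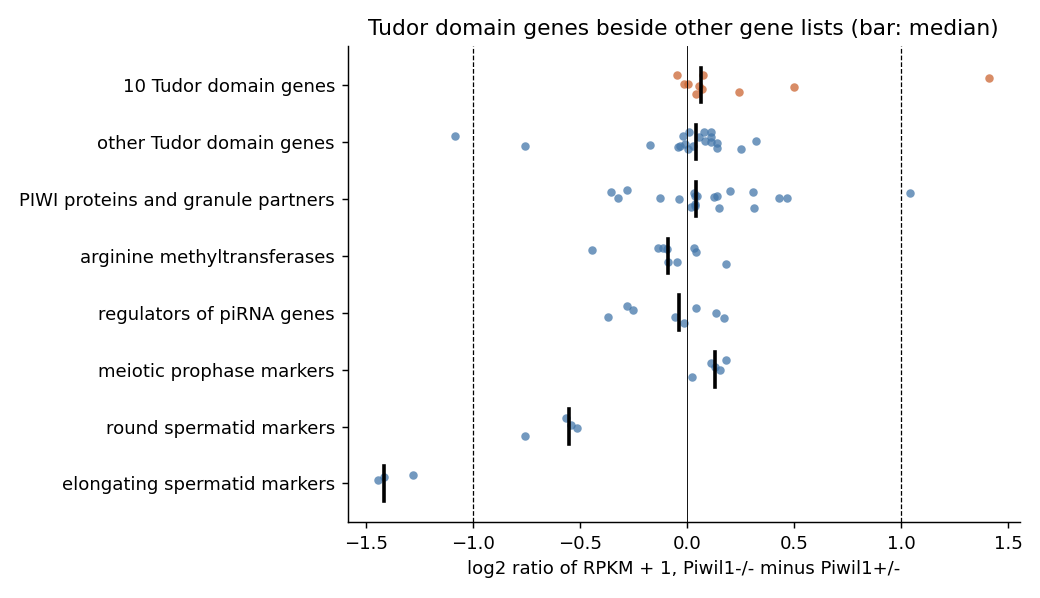
Log2 ratio of RPKM + 1, Piwil1-/- minus Piwil1+/-, of each gene past 1 RPKM by list, with black bars for the medians and dashed lines at 2-fold; Piwil1 is left out, and without it the 20 PIWI and partner genes have a median of 0.04. Tdrd1 (1.41) and Morc1 (1.04) lie beyond the right line, and Akap1 (-1.08) beyond the left one with the 3 elongating spermatid markers. The row labelled as regulators of piRNA genes is the mixed list of transcription regulators, and the partner row includes the nuclear Morc1.

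The genes whose pair of levels was nearest to that of Tdrd1, measured as the Euclidean distance of log2 (RPKM + 1) over the 2 libraries, were Psma8 (distance 0.50), Tex101 (0.54), Ankar (0.57), Birc2 (0.62) and Dnah7c (0.64). Psma8, a proteasome subunit of the testis, was at 55.3 and 91.8 RPKM in Piwil1+/- and Piwil1-/-. Ankar, an ankyrin and armadillo repeat gene, was at 43.4 and 83.03 RPKM. Tex101 had the log2 ratio closest to that of Tdrd1 among them, at 1.29. Likeness over 2 libraries is a description of levels only.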

How the data were processed

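RNA-seq values are the RPKM that the authors deposited for 1 library of each genotype, per the file headers. For the 2 small RNA libraries they deposited counts of reads for each distinct 50-nt sequence, adapter included. The submitters' processing notes name STAR, Bowtie and mm10. How reads were counted, with which annotation and by which strand, is not given in the sources used here. Symbols matched 22444 of 22808 gene identifiers.

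Log2 ratios are differences of log2 (RPKM + 1), which makes changes of low genes look smaller. Counts of genes use those at 1 RPKM or more in either library. Library totals came from whole-read steps of low genes and 32 genes with RefSeq spans under 1500 bp. For each gene the smallest length that gave whole reads in both libraries was taken, which succeeded for 99.6% of 16558 genes above 0 in both. A factor common to reads and length is lost, so read numbers are minimums, given these totals. Intervals are exact binomial for folds and exact Poisson for levels. Small RNAs were trimmed at an exact adapter match and searched in RefSeq promoter windows. The planned search of transcripts or proteins was not run, since no such sequences were used here. The methods were tested on simulated data with Python 3.11.15, numpy 2.4.6, pandas 2.3.3 and scipy 1.17.1.

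The members, gene lists and tests were chosen with earlier results of these data known. Named genes are the members, Piwil1, the neighbours of Tdrd1, its 5 nearest genes by level and the highest and lowest ratio in each pathway list. Others are said to be chosen after their values were seen, as were the single cell type markers named (Akap4, Tnp1, Prm1, Prm2, Insl3, Hbb-bs, Hba-a1 and Ptprc). Alternatives changed the pseudocount, scaling, threshold, expression minimum and small RNA counting.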

Additional observations from a re-analysis of the deposited data

How the results depend on the processing

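The log2 ratios of the 10 genes were recomputed with a pseudocount of 0.1 RPKM, with median centring and with trimmed-mean rescaling. All 30 values stayed inside the counting interval of the gene, and 2 changed sign, both for Tdrd3 (from 0.0042 to -0.0013 and -0.0019 under the 2 scalings). Tdrd1 ranged from 1.41 to 1.43. Tdrd1 remained the 1 member past the threshold at 1.5-fold, with the smaller pseudocount and with no expression minimum. Over all genes the smaller pseudocount gave 68 higher and 332 lower, and 1.5-fold gave 141 and 518, against 23 and 195. Without Tdrd6 the share of Tdrd1 in the family sum was 11.6% in Piwil1+/- and 24.3% in Piwil1-/-. All 5 alternatives of the small RNA search, each replicate left out included, gave 0 reads. No paired analysis was possible because each genotype has 1 library. Counting intervals of the 10 folds, from minimum read numbers, were relatively widest for Tdrd3 (0.956 to 1.05), and the number of libraries limits the comparison.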
